A study of Mus musculus with 18 samples.

Results

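The genes described here are those of the ErbB growth factor system, which signals through the EGF receptor and its relatives. They are 9 mouse symbols, of which 6 encode ligands (Hbegf, Areg, Ereg, Btc, Tgfa and Nrg1) and 3 encode receptors (Egfr, Erbb2 and Erbb3). Their probes were found by symbol in the platform's probe annotation, which paired 19057 genes with a probe. There were 17 probes for 8 of the 9 symbols, and none for Areg, which was not analysed here. After a filter on detection 6 members remained among 10902 tested genes: Hbegf, Ereg, Btc, Nrg1, Egfr and Erbb2.

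The cells were primary fibroblasts of male C57BL/6 mouse embryos at day 13.5, either wild type or with Dusp5 knocked out, and the embryos were littermates. Dusp5 encodes a nuclear phosphatase that inactivates the kinase ERK. Each genotype was measured without TPA (0 h, called untreated here) and after 1 h and 3 h with 100 ng/ml of TPA. TPA is a phorbol ester that activates protein kinase C. There were 3 Illumina bead arrays per group and 18 in all. Whether any cells were given the solvent alone is not stated in the sources used here. A change with TPA may therefore include a solvent effect, and it cannot be separated from handling or elapsed time. The sources used here do not say how many embryos or cultures stand behind each genotype. All p-values therefore describe the spread among these 3 arrays per group, and that spread may be technical.

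ErbB ligands are made as membrane-anchored precursors and are released by metalloproteases such as ADAM17, an enzyme that phorbol esters are known to activate. A released ligand brings receptors together in pairs, which turns on the RAS and ERK pathway and, through it, transcription of immediate early genes, of feedback inhibitors and, in many cell types, of further ErbB ligands. The EGF receptor binds HB-EGF, amphiregulin, epiregulin, betacellulin and TGF-alpha. Neuregulins bind ErbB3 and ErbB4, ErbB2 has no known soluble ligand of its own, and ErbB3 has little kinase activity, so these receptors act mainly as partners of one another.

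Values are log2 normalized signal, and a gene is called where limma's p-value, adjusted over all 10902 genes of a comparison, was below 0.05. Detected probes numbered 16675 to 18348 per array, and arrays of one group correlated at 0.991 to 0.996. All 8 fibroblast markers, collagen genes among them, were detected on all 18 arrays. Some markers of other cell types were detected too. Of the macrophage markers, Csf1r and Adgre1 were detected on 18 arrays and Tyrobp on 17, while Ptprc and Itgam were detected on 0. Of the endothelial markers, Kdr was detected on 14 arrays, Tek on 7, Pecam1 and Cdh5 on 1 each and Tie1 on 0. Dusp5 signal was lower in the knockout than in the wild type at every time, by -0.89, -0.97 and -0.65 at 0 h, 1 h and 3 h (limma adjusted p = 6.72e-06, 1.93e-06 and 1.45e-04), although no knockout array had the probe at background. TPA raised Dusp5 signal in both genotypes, at 1 h by 1.95 in the wild type and 1.87 in the knockout (adjusted p = 4.61e-12 and 7.40e-12), and the treated knockout mean of 10.18 stood above the untreated wild-type mean of 9.20. The sources used here do not place that probe relative to the deletion, so this was only a partial check of the genotype labels. Arrays measure RNA of the whole culture, so fewer cells of a type and less RNA per cell cannot be told apart.

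Among the ligands, Hbegf rose early and was still up at 3 h, Btc rose late, and Nrg1 fell late, in both genotypes. Neither tested receptor gene was called higher in any comparison. At 1 h the only member called was Hbegf, 1 of 6 in wild-type cells, where 3.38% of all tested genes were called, and 1 of 6 in knockout cells, where 5.41% were. At 3 h against 0 h, 3 of 6 members were called in wild-type cells (Hbegf and Btc higher, Nrg1 lower), against 16% of all genes. In knockout cells 4 of 6 were called over the same interval (Hbegf and Btc higher, Nrg1 and Erbb2 lower), against 18.4% of all genes. From 1 h to 3 h, 3 members were called in wild-type cells (Btc higher, Nrg1 and Erbb2 lower, background 10.2%) and 2 in knockout cells (Btc higher, Nrg1 lower, background 13.9%). The members that passed the detection filter could do so through the groups in which they were high. Btc did, detected on 3 of 3 arrays of each genotype at 3 h and otherwise on 1 untreated knockout array. These counts include Btc, and they describe the 6 genes and not all 9. The sizes given below were smaller without background correction, where at 3 h against 0 h the wild-type and knockout differences were 0.22 and 0.49 for Btc and -0.38 and -0.64 for Nrg1, and the knockout difference was -0.15 for Erbb2, each still called.

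**Figure D1:**
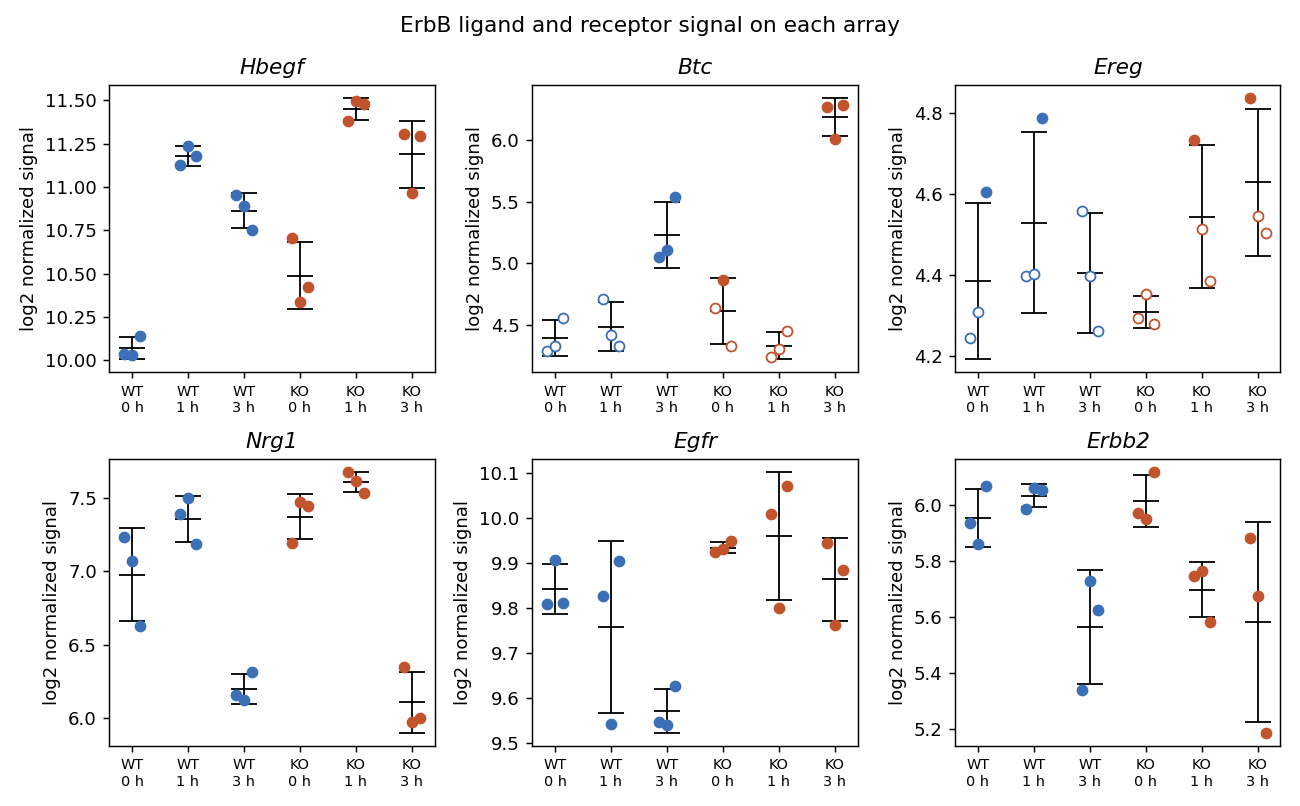
Log2 normalized signal of the 6 tested members on each of the 18 arrays, with wild type in blue and Dusp5 knockout in orange, filled points where the probe was detected (p below 0.05), open points where it was not, and bars for the mean and SD of 3 arrays. Hbegf was lowest untreated and highest at 1 h in both genotypes, Btc was above its other groups at 3 h, and Nrg1 was lowest at 3 h. Each panel has its own scale, and signals of different probes cannot be compared.

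Hbegf encodes HB-EGF, a heparin-binding ligand of the EGF receptor and of ErbB4. Its main probe read 10.04, 10.03 and 10.14 on the untreated wild-type arrays, 11.12, 11.24 and 11.18 at 1 h and 10.95, 10.89 and 10.75 at 3 h. In the knockout it read 10.70, 10.33 and 10.42 untreated, 11.38, 11.49 and 11.48 at 1 h and 11.30, 10.96 and 11.29 at 3 h. All treated arrays lay above all untreated arrays of their genotype, and within each genotype the 1 h arrays lay above the 3 h arrays. The increase at 1 h was 1.11 ± 0.11 (log2, standard error, limma adjusted p = 4.67e-07), or 2.16-fold, in wild-type cells. It was 0.96 (adjusted p = 3.01e-06), or 1.95-fold, in knockout cells. At 3 h Hbegf was still 1.73-fold above untreated cells in the wild type (0.79, adjusted p = 1.80e-05) and 1.63-fold in the knockout (0.70, adjusted p = 6.29e-05). With median scaling the wild-type value at 3 h was 0.40 (adjusted p = 0.0312), where the median of all genes was -0.31. The decline from 1 h to 3 h was -0.32 in the wild type and -0.26 in the knockout and was not called (adjusted p = 0.0722 and 0.129). The wild-type decline was called under 4 other settings, among them the authors' normalized values (-0.30, adjusted p = 0.0275), and the knockout decline when both probes were averaged (-0.43, adjusted p = 0.0293). Among all genes ranked from the largest increase, Hbegf was 50th at 1 h in wild-type cells and 78th in knockout cells.

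A second Hbegf probe, much dimmer and detected on 12 of 18 arrays, gave a partly different picture. It rose by 0.94 ± 0.19 at 1 h in knockout cells (limma adjusted p = 0.00324 over all 20239 kept probes). Of all these probes 2.62% and 12.3% were called at 1 h and 3 h in the wild type and 4.1% and 14.1% in the knockout. In wild-type cells its difference at 1 h was 0.57 and was not called (adjusted p = 0.141). At 3 h its values were 0.09 in the wild type and 0.35 in the knockout, neither called, where the main probe was called in both. From 1 h to 3 h it fell by 0.59 in the knockout (adjusted p = 0.0472), a decline that was not called on the main probe. The early increase of Hbegf in knockout cells was thus called by both probes, the increase at 3 h by the main probe alone and the later decline in the knockout by the second probe alone. The second probe was detected on 3 of 3 arrays of each genotype at 1 h. At 0 h and at 3 h it was detected on 2 of 3 wild-type and 1 of 3 knockout arrays, and its knockout 3 h values ran from 4.55 to 5.47. Signals this close to background limit what its missing calls at 3 h show.

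**Figure D2:**
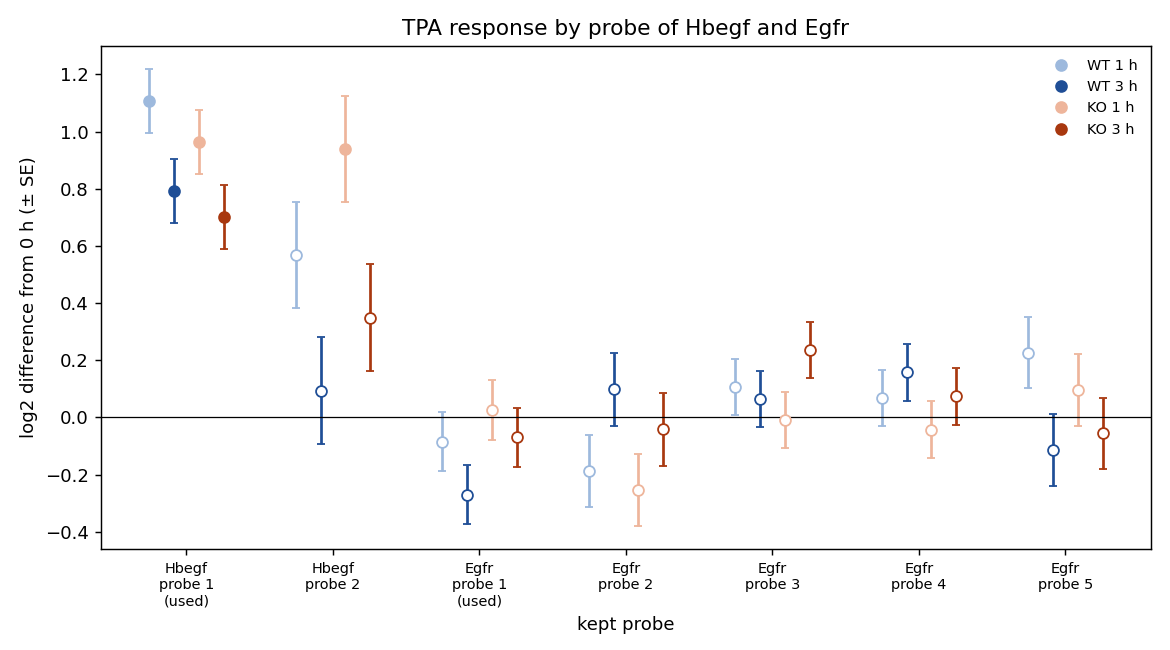
Log2 difference from untreated cells, with its standard error, for the 2 kept Hbegf probes and the 5 kept Egfr probes, at 1 h and 3 h in wild type (blue) and knockout (orange), with filled points where the probe was called. The first Hbegf probe was called in all 4 comparisons and the second at 1 h in the knockout, while no Egfr probe was called and the 5 probes lay on both sides of 0.

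Btc encodes betacellulin, a ligand of the EGF receptor and of ErbB4. Its increase came from a signal at the edge of detection, so the bases before its start site are shown here beside a dim gene that became detectable. The window is RefSeq's 250 bases upstream of the Btc start on the minus strand of chromosome 5 (GRCm38.p6, chr5:91402995-91403244). It holds 59.6% G and C and none of 5 motifs searched on both strands, so no base stands in capitals.
Btc: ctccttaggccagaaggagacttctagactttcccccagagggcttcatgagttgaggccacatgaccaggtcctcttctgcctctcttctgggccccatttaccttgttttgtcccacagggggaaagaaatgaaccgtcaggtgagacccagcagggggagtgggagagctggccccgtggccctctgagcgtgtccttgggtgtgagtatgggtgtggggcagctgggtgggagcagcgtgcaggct
The motifs were TGANTCA for AP-1, TGACGTCA for the cAMP response element, GCGGGGGCG for EGR factors, CCGGAAGT for ETS factors and GGGCGG for the GC box. Of 32851 mouse windows of the same length, 6.75%, 1.55%, 2.57%, 2.88% and 32.7% held them, in that order. A missing match says only that these letters are not in this window.

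The Btc probe read 4.29, 4.33 and 4.56 on the untreated wild-type arrays, 4.71, 4.42 and 4.33 at 1 h, and 5.05, 5.11 and 5.54 at 3 h. In knockout cells it read 4.64, 4.87 and 4.33 untreated, 4.24, 4.30 and 4.45 at 1 h, and 6.27, 6.01 and 6.28 at 3 h. It was detected on all 6 of the 3 h arrays, on 1 untreated knockout array and on none of the others. Both 3 h groups therefore stood above every other array, and all knockout 3 h arrays stood above all wild-type 3 h arrays. Because the probe was not above background on any untreated wild-type array, the increase there has only a lower bound, taken against the lowest signal of detected probes on each array. Btc rose at least 1.54-fold at 3 h in wild-type cells (measured difference 0.84 ± 0.15, limma adjusted p = 3.29e-04). In knockout cells it also rose (measured difference 1.58 ± 0.15, adjusted p = 6.38e-08), from a base detected on 1 of 3 arrays, so no fold is given. Against 1 h the increase was at least 1.49-fold in the wild type and at least 2.87-fold in the knockout, since the probe was detected on 0 of 3 arrays of either genotype at 1 h. At 1 h itself Btc was not called in either genotype (0.09 and -0.28, adjusted p = 0.881 and 0.377).

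Some epithelial genes were also higher at 3 h. The summed signal of 8 epithelial and keratinocyte markers was 211 to 237 on untreated and 295 to 302 on 3 h wild-type arrays, and 214 to 234 and 311 to 332 on the corresponding knockout arrays. Of the 4 markers tested, 2 rose at 3 h in both genotypes: the tight junction gene Cldn4 (1.24 and 1.23, limma adjusted p = 9.91e-08 and 7.44e-08) and the keratin gene Krt18 (0.56 and 0.71, adjusted p = 0.00472 and 4.14e-04). Cldn4 also rose at 1 h in the wild type (0.67, adjusted p = 9.67e-04), when Btc was not called. Of the other markers on this list, Epcam, Krt5 and Trp63 were detected on 0 of 18 arrays, Krt14 on 1, Krt8 on 10 and Cdh1 on 15. Krt8 and Cdh1 were tested and not called at 3 h in either genotype. The part of other cell types in the Btc increase was not tested.

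The other EGF receptor ligands gave no call. Ereg encodes epiregulin, and its brighter probe was detected on 4 of 18 arrays. The Ereg probe read 4.24, 4.31 and 4.60 on untreated, 4.40, 4.40 and 4.79 on 1 h and 4.56, 4.40 and 4.26 on 3 h wild-type arrays. In the knockout it read 4.29, 4.35 and 4.28 untreated, 4.73, 4.51 and 4.39 at 1 h and 4.84, 4.54 and 4.50 at 3 h. The treated knockout arrays lay above the untreated ones, but the difference of 0.32 at 3 h was not called (95% interval 0.05 to 0.59, limma adjusted p = 0.104), and wild-type groups overlapped. Its second probe was detected on 1 of 18 arrays. Tgfa encodes TGF-alpha, and its single probe, between 4.27 and 4.94 on all arrays, was detected on 1 of 18 and was not tested. Fitted without the detection filter it was not called in any comparison (adjusted p between 0.641 and 0.995). Signals this close to background limit what could be detected for either gene.

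In the RefSeq order of mouse genes, Epgn, Ereg, Areg and Btc lie next to one another on chromosome 5 with no other protein-coding gene between them. Epgn encodes epigen, a further EGF receptor ligand. Areg had no probe, so it could not be called, and Ereg was detected on 4 of 18 arrays. Of the genes tested in this row, Btc was the one called at 3 h, and signals near background limit what Epgn and Ereg could show. Epgn, detected on 3 of 18 arrays, differed by 0.02 in wild-type and 0.00 in knockout cells at 3 h and was not called.

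Nrg1 encodes neuregulin 1, a ligand of ErbB3 and ErbB4. Its single detected probe read 7.23, 7.07 and 6.63 on untreated wild-type arrays, 7.39, 7.50 and 7.18 at 1 h and 6.16, 6.13 and 6.32 at 3 h. Knockout arrays gave 7.19, 7.47 and 7.44 untreated, 7.67, 7.62 and 7.53 at 1 h and 6.35, 5.98 and 6.01 at 3 h. In each genotype the 3 h arrays lay below all other arrays, and the wild-type 0 h and 1 h arrays overlapped. Against untreated cells Nrg1 fell at 3 h, 1.71-fold in the wild type (-0.78 ± 0.14, limma adjusted p = 3.83e-04) and 2.39-fold in the knockout (-1.26 ± 0.14, adjusted p = 6.80e-07). Against 1 h it fell 2.23-fold in the wild type (-1.16, adjusted p = 6.22e-06) and 2.82-fold in the knockout (-1.50, adjusted p = 1.14e-07). At 1 h it was slightly above untreated cells and was not called, with 0.38 in the wild type and 0.24 in the knockout (adjusted p = 0.185 and 0.449). The other 2 Nrg1 probes were detected on 0 of 18 arrays, so the fall rests on 1 probe. Nrg1 has many isoforms, and the sources used here do not say which of them this probe reads.

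One marker of Schwann cells, which depend on neuregulin 1, moved with it. Of 6 Schwann and neural crest markers 4 had a probe, and their summed signal was 107 to 110 on untreated and 85.1 to 87.8 on 3 h wild-type arrays, and 119 to 130 and 82.6 to 91.7 in the knockout. This came from the myelin gene Mbp, which fell at 3 h by 0.84 in the wild type and 1.17 in the knockout (limma adjusted p = 8.89e-06 and 5.77e-08). The defining markers Sox10, S100b and Foxd3 were detected on 0 of 18 arrays. The part of such cells in the Nrg1 fall was not tested.

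Egfr encodes the EGF receptor itself, and it was the receptor gene read by the most probes, 6 in all, of which 5 were detected on all 18 arrays. The 250 bases before its start are shown because this gene, unlike Btc, was not called in any of the 11 comparisons. They lie on the plus strand of chromosome 11 (RefSeq, GRCm38.p6, chr11:16751953-16752202) and hold 60.8% G and C, with capitals marking the single match, a GC box on the minus strand that begins 9 bases before the start.
Egfr: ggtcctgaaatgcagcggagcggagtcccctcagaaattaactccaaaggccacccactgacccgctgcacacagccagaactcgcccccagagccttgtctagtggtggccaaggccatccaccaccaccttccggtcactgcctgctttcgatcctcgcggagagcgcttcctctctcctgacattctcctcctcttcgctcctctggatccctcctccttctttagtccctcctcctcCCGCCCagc
No AP-1, cAMP response element, EGR or ETS match was found in the Egfr window or in those of Tgfa and Erbb2, and RefSeq's tables gave windows for 5 of the 9 members. The Areg window held 1 cAMP response element, which begins 61 bases before the start, and 1 GC box, which begins 52 bases before it. The Tgfa window held 2 GC boxes and the Erbb2 window held none.

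The brightest Egfr probe read 9.81, 9.91 and 9.81 on untreated wild-type arrays, 9.83, 9.54 and 9.90 at 1 h and 9.55, 9.54 and 9.63 at 3 h. Its knockout values were 9.92, 9.93 and 9.95 untreated, 10.01, 9.80 and 10.07 at 1 h and 9.94, 9.76 and 9.88 at 3 h. The wild-type 3 h arrays lay below the untreated ones, while the other groups of one genotype overlapped. The wild-type difference at 3 h was -0.27 (95% interval -0.48 to -0.06, limma adjusted p = 0.0739) and was not called. It was called under 6 other settings, with values from -0.69 to -0.24. The other 4 kept probes gave 0.10, 0.07, 0.16 and -0.11 for the same comparison, so the lower value came from the brightest probe and 1 other. In knockout cells the difference at 3 h was -0.07 (95% interval -0.28 to 0.14), and over the 5 probes it ranged from -0.07 to 0.23 with none called.

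Erbb2 encodes the receptor that pairs with the other ErbB receptors. Its single probe read 5.94, 5.86 and 6.07 on untreated wild-type arrays, 5.99, 6.06 and 6.06 at 1 h and 5.34, 5.73 and 5.63 at 3 h. In the knockout it read 5.97, 5.95 and 6.12 untreated, 5.75, 5.76 and 5.58 at 1 h and 5.88, 5.68 and 5.19 at 3 h. The 3 h arrays of each genotype lay below its untreated arrays, and the knockout 1 h arrays did so as well. Erbb2 fell at 3 h in the knockout by 0.43 ± 0.14 (limma adjusted p = 0.0309). In the wild type it fell from 1 h to 3 h by 0.47 ± 0.14 (adjusted p = 0.0310), and the difference from untreated cells was -0.39 (adjusted p = 0.0583). These calls were close to the threshold. The knockout call was lost without replicate 1, 2 or 3 of the untreated group (adjusted p = 0.0599, 0.0518 and 0.120) and without replicate 3 at 3 h, which left a difference of -0.24 (adjusted p = 0.228). It was also lost when only the compared arrays were fitted (adjusted p = 0.0953). The wild-type call from 1 h to 3 h was lost without any 1 of 5 of the 6 arrays compared (adjusted p between 0.0592 and 0.172). Erbb3, the partner that binds neuregulins, had 1 probe, which was detected on 0 of 18 arrays at 4.15 to 4.43 and was not tested.

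**Figure D3:**
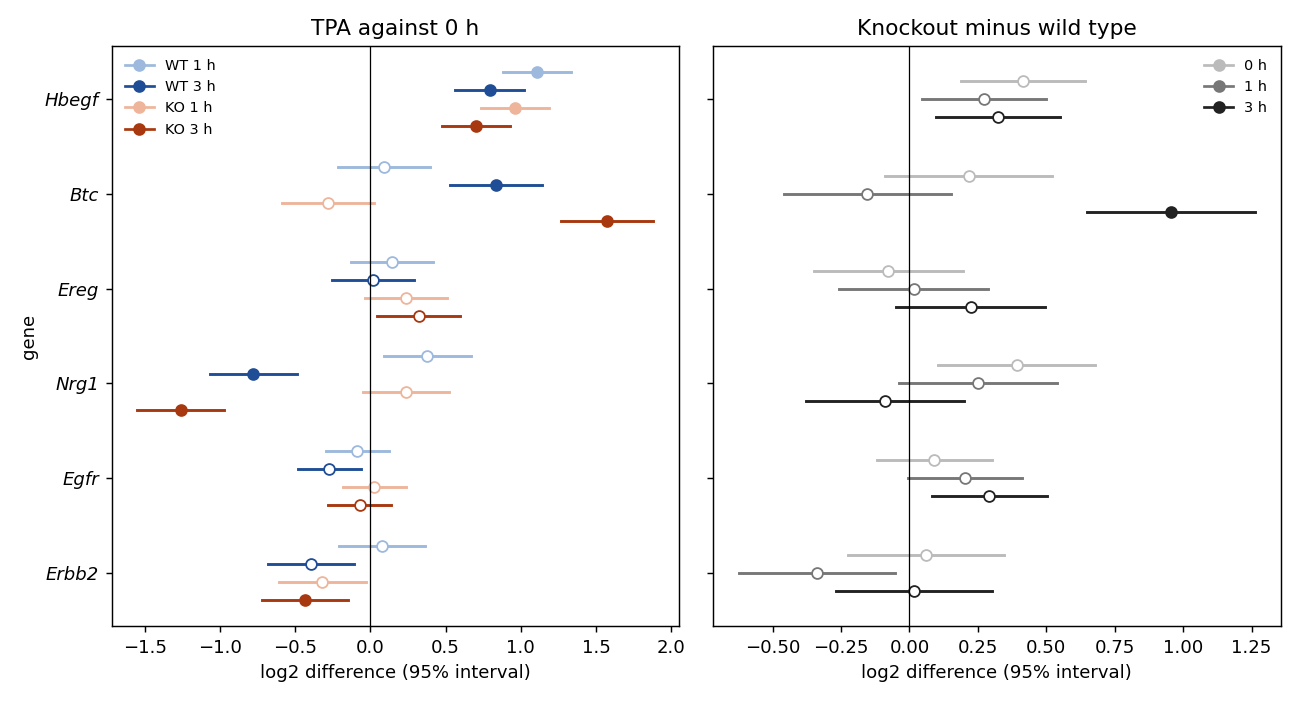
Log2 differences with 95% intervals for the 6 tested members, on the left for TPA against untreated cells by genotype and time, and on the right for knockout minus wild type at each time, with filled points where limma's adjusted p was below 0.05. On the left Hbegf, Btc and Nrg1 carry most filled points. On the right the single filled point is Btc at 3 h, at 0.96.

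Knockout and wild-type cells were then compared at each time. The question was whether loss of the phosphatase goes with different ErbB transcripts before and during TPA. Btc at 3 h was the single member called, 1 of 6, where 4.97% of all genes were called. It had passed the detection filter through its 3 h arrays. Betacellulin transcript signal was 1.94-fold higher in the knockout (0.96 ± 0.15, 95% interval 0.65 to 1.26, limma adjusted p = 3.81e-04), with all 3 knockout arrays above all 3 wild-type arrays. Among all genes ranked by size, Btc was 26th from the highest. Across the other settings the difference stayed between 0.33 and 0.97 and was called in each, and with 1 array left out it lay between 0.87 and 1.11. At 0 h and 1 h Btc was not called (0.22 and -0.15, adjusted p = 0.512 and 0.737). The epithelial marker Cldn4 was higher in the knockout both untreated (0.63, adjusted p = 0.00573) and at 3 h (0.62, adjusted p = 0.00260), while Krt18 was not called at 3 h (-0.20, adjusted p = 0.476).

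Hbegf signal was higher in knockout arrays than in all wild-type arrays of the same time at 0 h, 1 h and 3 h, but no difference was called. The differences were 0.42 at 0 h, 0.27 at 1 h and 0.32 at 3 h, with limma adjusted p of 0.0534, 0.254 and 0.0977 and 95% intervals of 0.19 to 0.64, 0.04 to 0.50 and 0.10 to 0.55. The untreated difference was close to the threshold and passed it under 6 of 11 other settings, the 3 h difference under 4 of 11. With median scaling the differences were 0.10 at 0 h (adjusted p = 0.633) and 0.03 at 1 h, where the median of all genes was -0.22 at both times. The second Hbegf probe gave -0.05 at 0 h, 0.32 at 1 h and 0.21 at 3 h, none called. At 0 h, then, the main probe's difference was not seen on the second one. That second probe was near background at 0 h, detected on 2 of 3 wild-type and 1 of 3 knockout arrays, which limits what it could show.

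No member was called between genotypes at 0 h or at 1 h, where 1.85% and 2.2% of all genes were. At unadjusted p below 0.05 there were 2 members at each time, Hbegf and Nrg1 at 0 h and Hbegf and Erbb2 at 1 h. The share of all genes at that looser threshold was not counted, so these counts are description only. Nrg1 was 0.39 higher in the untreated knockout (adjusted p = 0.166) and 0.08 higher with median scaling, and Erbb2 was 0.34 lower at 1 h with groups that did not overlap (-0.34, adjusted p = 0.263). All 5 Egfr probes were higher in the knockout at each of the 3 times, by 0.07 to 0.37 at 3 h, and none was called, against 1.16%, 1.29% and 3.11% of all kept probes at 0 h, 1 h and 3 h. That direction depended on the scaling: with median scaling the brightest probe differed by -0.20 at 0 h and -0.09 at 1 h, against a median of all genes of -0.22. For the brightest the 3 h difference was 0.29 (95% interval 0.08 to 0.50, adjusted p = 0.108), and it passed the threshold under 4 of 11 other settings. The 5 probes read the same RNA on the same arrays, so they are not separate samples.

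The response to TPA was compared between genotypes as the difference of the differences, which uses the 4 groups concerned. No member was called at 1 h or at 3 h, where 0.0275% and 0.358% of all genes were. At unadjusted p below 0.05 there were 0 members at 1 h and 2 at 3 h, Btc and Nrg1. Here too the share of all genes at that threshold was not counted. The Btc response at 3 h was larger in the knockout by 0.74 ± 0.21 (95% interval 0.31 to 1.17), which did not pass the adjustment over all genes (limma adjusted p = 0.181), and across other settings the adjusted p lay between 0.0759 and 0.487. Its bases were near background, with the probe detected on 0 of 3 untreated wild-type and 1 of 3 untreated knockout arrays, so the size is that of the measured signals only. The Nrg1 fall at 3 h was deeper in the knockout by -0.48 (95% interval -0.89 to -0.07, adjusted p = 0.417). For Hbegf the responses differed by -0.15 at 1 h (adjusted p = 0.942, 95% interval -0.47 to 0.17) and by -0.09 at 3 h, with an adjusted p of 0.868. These comparisons share the untreated groups with the earlier ones, so they are not separate evidence.

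Ordered by group mean, Hbegf ran from untreated wild type through untreated knockout, wild type at 3 h, wild type at 1 h and knockout at 3 h to knockout at 1 h. In this order the wild-type 1 h and knockout 3 h arrays overlapped, while all other neighbours were separate. For Btc the 4 groups at 0 h and 1 h overlapped at the bottom, followed by wild type at 3 h and then knockout at 3 h, each separate from the group before. For Nrg1 both 3 h groups overlapped at the bottom, untreated wild type, wild type at 1 h and untreated knockout overlapped in the middle, and knockout at 1 h was highest. Neighbours in the Egfr and Ereg orders all overlapped. In the Erbb2 order the only neighbours that did not overlap were knockout at 1 h and untreated wild type. The knockout 3 h arrays (5.19 to 5.88), lower in that order, still reached into the untreated wild-type range (5.86 to 6.07).

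Genes that act on ErbB ligands and receptors were read from lists chosen with earlier results of these data known. Of 11 tested genes of ligand shedding, 0 rose and 1 fell at 3 h in each genotype, where 16% and 18.4% of all genes were called, Adam9 in the wild type (-0.45, limma adjusted p = 0.0338) and Rhbdf1, an inactive rhomboid that controls ADAM17, in the knockout (-0.28, adjusted p = 0.0385, and 0.0599 with median scaling). These are transcript levels, and release itself was not measured. Adam17 itself was not called in any comparison. Timp3, an inhibitor of ADAM17, was higher in the knockout at 1 h and 3 h (0.37 and 0.42, adjusted p = 0.0496 and 0.0135). With median scaling neither Timp3 difference was called (0.11 and 0.43, adjusted p = 0.623 and 0.191), the 1 h call was also lost with scaling to the kept probes (adjusted p = 0.0894), and of its 2 other probes 0 were called at 1 h and 1 at 3 h. The other ErbB list held Egf and Epgn as tested genes, and neither was called in any comparison.

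Co-receptors and ligand partners include the tetraspanin Cd9, which binds the HB-EGF precursor, and heparan sulfate proteoglycans, which hold HB-EGF at the surface. At 3 h in wild-type cells 5 of 7 were called higher (7.81% of all genes were), Cd9 (0.57), Gpc1 (0.43), Sdc4 (0.43), Cd82 (0.42) and Sdc1 (0.34). The median of the list was 0.42 against 0.01 for all genes. The count of 5 depended on the scaling: with median scaling 0 were higher and 1 was lower, with a list median of -0.01 against -0.31 for all genes. In knockout cells 4 of 7 were called higher (8.25% of all genes were), Sdc4 (0.87), Cd9 (0.68), Sdc1 (0.59) and Gpc1 (0.38). The list median there was 0.38 against -0.02. With median scaling 3 were called higher in knockout cells, where the median of all genes was -0.12. At 1 h the single call was Sdc4 in knockout cells (0.63, limma adjusted p = 6.60e-05), and at 3 h Sdc4 was 0.33 higher in the knockout than in the wild type (adjusted p = 0.0377). With median scaling neither Sdc4 difference was called (0.37 and 0.32, adjusted p = 0.0750 and 0.389).

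Inhibitors and turnover genes of the receptors gave early and large calls. Of 19 tested, 3 rose and 1 fell at 1 h in each genotype, led by Errfi1, whose product blocks the EGF receptor kinase (2.13 in the wild type and 2.42 in the knockout), and Spry4 (1.85 and 1.88). At 3 h 8 rose and 1 fell in the wild type and 7 rose and 1 fell in the knockout. Of all genes 3.38% and 5.41% were called at 1 h in wild type and knockout, and 16% and 18.4% at 3 h. With median scaling the 3 h counts were 3 and 7 in the wild type and 6 and 1 in the knockout. Under that scaling the median of all genes was -0.31 and -0.12, and 5.39% and 26.5% of all called genes were higher. Lrig1, a membrane protein that drives degradation of ErbB receptors, rose at 3 h (1.09 and 1.07) with Errfi1 (1.92 and 2.33). Its relative Lrig3 fell (-0.68 and -0.97), although its other kept probe was not called. Between genotypes at 3 h, Spry4 was 0.54 higher (limma adjusted p = 0.0485) and Lrig3 0.30 lower in the knockout (-0.30, adjusted p = 0.0295). With median scaling the values were 0.49 and -0.33 and neither was called (adjusted p = 0.224 and 0.405), and the Spry4 call was also lost with scaling to the kept probes (adjusted p = 0.0546).

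Of 16 tested adaptors next to the receptors most were not called: 3 rose and 2 fell at 3 h in the wild type and 2 rose and 2 fell in the knockout, where 16% and 18.4% of all genes were called. The list medians were -0.10 and 0.04, against 0.01 and -0.02 for all genes. Gab1, a docking protein of EGF receptor signalling, fell (-0.67 and -1.01), as did the kinase subunit Pik3cb (-1.07 and -0.85), and Eps8, a substrate of the EGF receptor, rose (0.65 and 0.74). With median scaling the wild-type counts were 0 higher and 10 lower, where the median of all genes was -0.31 and 5.39% of all called genes were higher. The wild-type Eps8 difference with that scaling was 0.23 (adjusted p = 0.198). Between genotypes, Eps8 was lower in the knockout at 0 h, 1 h and 3 h (-0.52, -0.58 and -0.43, limma adjusted p = 0.0200, 0.00783 and 0.0292). At 3 h Pik3r1, a regulatory subunit of the same kinase family, was lower in the knockout (-0.47, adjusted p = 0.00450) and Pik3cb was higher (0.37, adjusted p = 0.0436). With median scaling the 3 h calls of Eps8, Pik3r1 and Pik3cb were lost (adjusted p = 0.0974, 0.0826 and 0.439).

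Of 15 tested genes known as outputs of ERK, 9 rose at 1 h in wild-type and 10 in knockout cells, led by Egr3 (4.60 and 4.74) and Junb (2.64 and 2.79). Of all genes 3.38% and 5.41% were called there. At 3 h 7 of 15 were higher in the knockout than in the wild type and 0 were lower, where 4.97% of all genes were called. Among them Egr3 was higher by 1.38, Egr1 by 1.28 and Junb by 0.89 (limma adjusted p = 4.67e-07, 6.83e-08 and 6.72e-05), though the other kept Egr3 probe was not called. Dusp4 and Egr2 were already higher in the untreated knockout (0.54 and 0.69), though not called there with median scaling (adjusted p = 0.356 and 0.0978). Phlda1, also among the 7, was not called at 3 h with median scaling (adjusted p = 0.272).

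**Figure D4:**
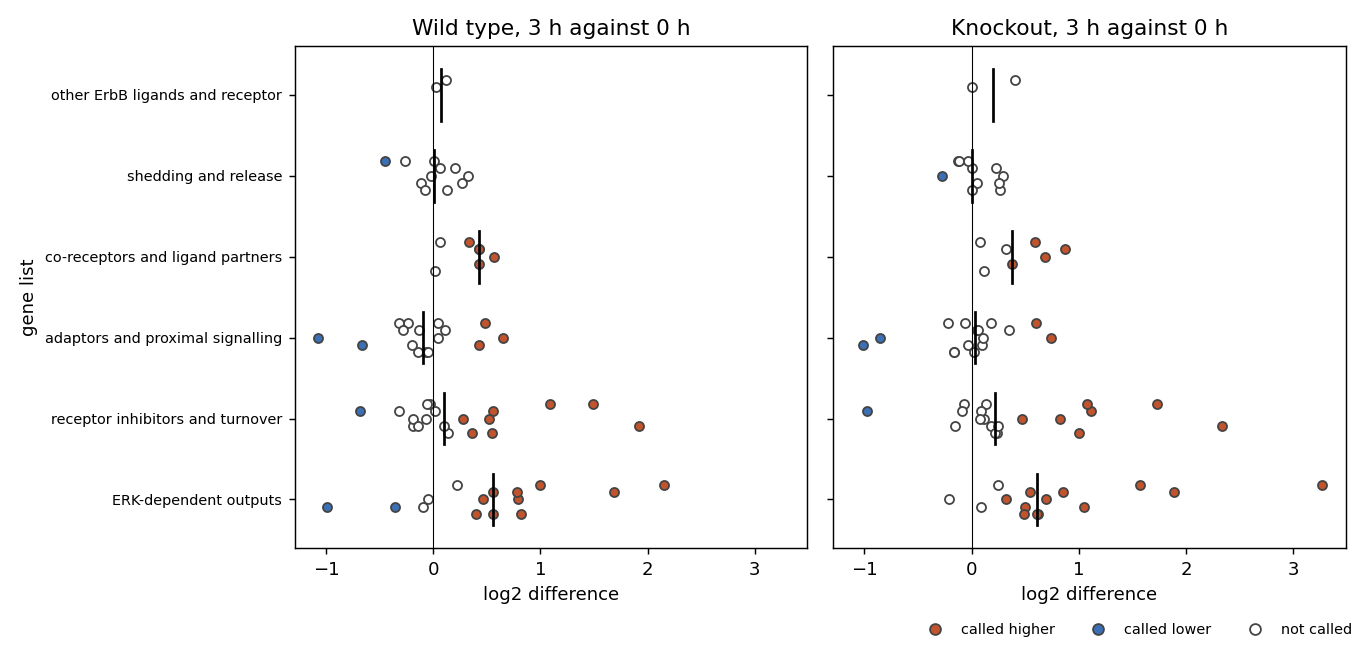
Log2 difference at 3 h against 0 h of each tested gene in the 6 lists, in wild type (left) and knockout (right), with points coloured by call and a bar at the median of each list. The co-receptor median stood at 0.42 and 0.38, but with median scaling no co-receptor was called higher in the wild type. Inhibitors and ERK outputs spread to the right, to 2.33 for Errfi1 and 3.27 for Egr3 in the knockout.

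The genes whose signal most resembled each member were named by Pearson's r over the 18 arrays among 10585 genes. The arrays share the 6 groups, so r mainly follows the group means and is given as a description. Hbegf was most like Fam110c (0.973), Arid3b (0.958) and Spry4 (0.954). Btc was most like Car2 (0.958), Il33 (0.952) and Spred2 (0.948), and Nrg1 was most like Flrt2 (0.963), Nuak2 (0.932) and Fam107b (0.922). The receptors had looser companions, with Speer3 (0.854) first for Egfr and Crbn (0.828) first for Erbb2, and Ereg, near background, reached 0.788 with Mycbp2.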

How the data were processed

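The authors deposited non-normalized bead intensities with their detection p-values, per the file headers, and a series matrix of normalized log2 values whose making the sources used here do not describe. The deposited log2 values ranked probes as the intensities did (Spearman 1) and served as an alternative. From the intensities, background was removed by normexp (negative control level inferred from detection p-values), an offset of 16 was added, and quantile normalization on the log2 scale followed (limma 3.58.1, R 4.3.3). The offset understates changes of dim probes. A probe was kept if detected at p below 0.05 on at least 3 of 18 arrays (20239 of 45281). The annotation gave 1 symbol for 34885 probes, several for 18 and none for 10378. The brightest kept probe stood for a gene (10902 genes, 4238 with several kept probes).

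One linear model with 6 group means (12 residual degrees of freedom, eBayes) gave 11 comparisons, with p-values adjusted by Benjamini-Hochberg over all genes. The members, gene lists and tests were chosen with earlier results of these data known. All members were named, with up to 4 called genes per list and comparison by size (Adam17, Epgn and the fifth co-receptor were named after their values were seen) and the 3 genes most like a member. Where a group had no detected array, a fold was bounded against the lowest signal among detected probes on each array. Groups came from the sample labels. Deviations of same-numbered arrays of different groups correlated at -0.08 to 0.43 (45 pairs, median 0.04). For arrays with different numbers this was -0.38 to 0.32 (90 pairs, median -0.03). These values do not settle whether the numbers pair samples. The labels name no pairing, so the main fit had no replicate block. The alternatives were the authors' values, other background correction, scaling, detection filters, probe rule, weights per array, a variance trend, a replicate block, fits restricted to the compared arrays, and each array left out. The number of arrays limits precision. Tests were checked on simulated data. Promoter windows came from RefSeq tables (GRCm38.p6).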

Additional observations from a re-analysis of the deposited data

Results flagged for a closer look

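The difference between the knockout and wild-type responses at 3 h was itself called for 3 of 15 tested ERK output genes and for 0 of 6 ErbB members. Of all genes 0.358% were called there. With so low a share, 0 calls among 6 members do not show that their responses were alike. Knockout minus wild-type response was 1.15 ± 0.14 for Egr1 (log2, limma adjusted p = 1.49e-04) and 1.12 ± 0.18 for Egr3 (adjusted p = 0.00315). For Fos it was 1.49 ± 0.23 (adjusted p = 0.00250), made of a wild-type fall and a smaller knockout rise. The Fos mean went from 6.53 untreated to 5.53 at 3 h in the wild type and from 6.32 to 6.82 in the knockout. That knockout rise was not called with median scaling (0.35, limma adjusted p = 0.227) or with the authors' normalized values (0.25, adjusted p = 0.0980). Without background correction the Fos response difference was 0.63 and was not called (adjusted p = 0.0550), and the other kept Egr3 probe was not called.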

How the results depend on the processing

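Of 1183 alternative values of the 66 member results, 1139 stayed on the same side of the threshold, 12 lost a call, 32 gained one and no called value changed sign. The number of members called moved by over 1.5 times in 5 comparisons. For wild type at 3 h against 0 h it was 5 with median scaling in place of 3 (Egfr -0.69 and Erbb2 -0.74 added, where the median of all genes was -0.31), and for knockout at 1 h it was 2 in place of 1 (Erbb2 -0.53, all genes -0.23). Between genotypes at 0 h it was 1 in place of 0 (Hbegf) with the series matrix values, with quantile normalization without background correction, at detection p below 0.01, with a variance trend, with array weights and with median scaling to the kept probes, a setting chosen after seeing the data. At 1 h it was 1 in place of 0 with median scaling (Erbb2 -0.54, all genes -0.22). At 3 h it was 3 in place of 1 (Hbegf and Egfr added) with array weights, with a variance trend, without background correction and with the series matrix values, and 1 to 2 with 1 array left out (Hbegf 0.44, adjusted p = 0.0294, without knockout 3 h replicate 2). The cause of these moves was not tested. With 1 array left out the counts were 3 to 4 for wild type at 3 h against 0 h, 2 to 3 against 1 h, and 3 to 4 for knockout at 3 h. Smaller moves under the other settings were 4 in place of 3 for wild type at 3 h against 0 h, 2 or 4 in place of 3 for wild type at 3 h against 1 h, 3 in place of 4 for knockout at 3 h against 0 h and 3 in place of 2 against 1 h. A replicate block left every count of members as it was (3 for wild type at 3 h). Median scaling lowered the share of higher calls from 55.6% to 8.08% (wild type 1 h), 48.8% to 5.39% (wild type 3 h), 47.3% to 9.1% (knockout 1 h), 44.9% to 26.5% (knockout 3 h), 53.1% to 33.3% (wild type, 3 h against 1 h), 52% to 2% (genotypes, 0 h) and 49.6% to 2.36% (genotypes, 1 h), and raised it from 53.7% to 74.9% for knockout at 3 h against 1 h and from 76.9% to 100% for the response difference at 3 h. Scaling to the kept probes gave 69.1%, 61.7% and 66.9% for wild type 1 h, wild type 3 h and genotypes at 0 h. A slide alternative was not run, since the sources used here give no slide. Signals near background limit Btc, Ereg, Tgfa and Erbb3.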
